A study of Caenorhabditis elegans with 2 samples.

Results

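LIN-54 bound mostly near gene starts, but 410 of its 3194 autosomal peaks (12.8%) had their summit inside a protein-coding gene and away from every annotated start, and these gene body peaks are described here. They were taken from the 3449 peaks that passed the irreproducible discovery rate (IDR) procedure of the study. A peak was included when its summit lay in an intron, a coding exon or an untranslated region (UTR) of an autosomal protein-coding gene, outside the window from 1000 bp upstream to 300 bp downstream of each protein-coding transcript 5′ end, and more than 200 bp from tRNA genes. The other autosomal peaks were 2132 promoter peaks, 484 intergenic peaks and 168 peaks near tRNA genes. Binding was measured by anti-GFP chromatin immunoprecipitation and sequencing (ChIP-seq) of sonicated chromatin from whole young adult Caenorhabditis elegans of mixed sex, 65 hours old, grown from L1 larvae that had been starved after bleaching. The strain, OP743, has the genotype unc-119(tm4063); wgIs743 and carries a fosmid transgene of lin-54 tagged with TY1, EGFP and 3xFLAG together with an unc-119(+) rescue gene. Both biological replicates are of this 1 group, so no condition is compared, the tagged protein comes from an added copy of lin-54, and signal from all tissues of the animal is mixed. No source used here says whether the tagged protein replaced the function of the endogenous one.

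LIN-54 binds DNA as part of DREAM, a complex in which it works with an E2F heterodimer, EFL-1 and DPL-1, and with the pocket protein LIN-35, a relative of Rb. In worms DREAM is best known as a repressor, of cell division genes and, in the soma, of germline genes. LIN-54 contacts a short DNA element, the cell cycle genes homology region (CHR), here searched as TTCGAA or TTTGAA. EFL-1 and DPL-1 contact E2F sites, here searched in 4 forms, written TTCCCGC in the first, TTCGCGC in the second, TTGCCGC in the third and TTGGCGC in the last. Both were searched on either strand with the centre of the match within 50 bp of the summit. An E2F site and a CHR element were both present at 22 gene body peaks (5.37%, Wilson 95% interval 3.57% to 7.99%), 21 of which lay in introns, against 2.13% of weaker gene body regions and 12.9% of promoter peaks. Within introns, both were present at 9.13% of peaks and 3.91% of weaker regions, whose median GC content differed (46.5% and 37.6%). The sequences of 4 of the strongest such peaks are shown because they hold both elements of the complex inside a gene. They come from the RefSeq copy of WBcel235, run 5′ to 3′ on the strand of the E2F site, and have the E2F site nearest the summit and any CHR element in capitals.
F53F1.3 (V:13409274-13409303, minus strand): tctaaTTTGAAtTTCGCGCgtgaatgagtt
Y94H6A.3 (IV:2677898-2677927, minus strand): ttaaatTTTGAATTCCCGCcaaaaaactcc
Y39A3CL.7 (III:1831253-1831282, plus strand): attttttaaatTTCCCGCctattttaacgc
smg-3 (IV:6369696-6369725, plus strand): caaaactcattTTGGCGCgaaaTTCAAAtt
In F53F1.3, Y94H6A.3 and smg-3 the CHR element lies within the 30 bases around the E2F site, and in smg-3 it is on the opposite strand, where a second E2F site overlaps the first. In Y39A3CL.7 the CHR element, with its centre 39.5 bp before the summit, is not wholly within the stretch shown. The intron peak in F53F1.3 had a signal of 190 in replicate 1 and 181 in replicate 2. The peak in Y94H6A.3 had signals of 108 and 139, Y39A3CL.7 had 126 and 117, and smg-3, a gene of nonsense-mediated mRNA decay, had 87.6 and 128. These and all other signals are the peak caller's values as deposited, which rank regions within 1 list and have no stated formula.

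A scan of all 2080 6-mers (a sequence and its reverse complement counted as 1) compared the 101 bases around each summit in gene body peaks with those in 12738 weaker gene body regions, which are the autosomal gene body regions of the pooled relaxed list that overlapped no IDR peak. More frequent in gene body peaks were 110 6-mers (5.29% of those tested), and 15 (0.721%) were less frequent, by Fisher's exact test with Benjamini-Hochberg adjustment over the 2080. Of the 110, 75 contained the dinucleotide CG, against 604 of the 2080. Gene body peaks also had a higher median GC content than the weaker regions, 44.6% against 41.6%, and the part of base composition in these calls was not tested in the scan. The 6-mer with the smallest p, GAGCGC, was present at 38 of 410 gene body peaks (9.27%) against 2.33% of weaker regions (Fisher's exact test, adjusted p = 5.74e-09). It was more frequent still at promoter peaks, at 15.9%. Sequences of 4 of the strongest peaks that hold it are shown with the 6-mer in capitals, since none of the 4 has an E2F site or a CHR element within 50 bp.
C34C12.2 (III:3456421-3456450, minus strand): acacgtgcggtgGAGCGCgcttgcatcgcg
pxn-1 (V:8500565-8500594, plus strand): cgacgctttggcGAGCGCaatgaatgttta
Y43F8C.7 (V:19643207-19643236, plus strand): tgggcggcaggcGAGCGCgttagccactaa
F56D5.6 (IV:9403952-9403981, plus strand): gaaagtgcggtgGAGCGCgtttgcaccgga
C34C12.2 and F56D5.6 share an unbroken run of 15 bases, GTGCGGTGGAGCGCG. Its inner 10 bases, GGTGGAGCGC, were present at 3 gene body peaks, at 26 promoter peaks (1.22%) and at 7 of the 12738 weaker regions (0.055%). This stretch was chosen after the values were seen and has no test.

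The other 5 6-mers with the smallest p overlap it or one another in their letters. GCGCGC was present at 7.07% of gene body peaks and 1.36% of weaker regions, AGCGCG at 8.54% and 2.03%, GCGCAC at 8.05% and 1.95%, CCCGCG at 6.10% and 1.15%, and ACCCGC at 6.34% and 1.303%. They were mostly in introns: 27 of the 29 peaks with GCGCGC and 33 of the 35 with AGCGCG were intron peaks. Among the 319 gene body peaks with no noncoding RNA gene other than a tRNA within 200 bp, ACCCGC was present at only 2.51% and CCCGCG at 3.76%. In those peaks GAGCGC was present at 8.78%, GCGCGC at 5.33%, AGCGCG at 7.21% and GCGCAC at 6.58%. Weaker regions were not limited in this way. At promoter peaks ACCCGC was rarer (4.60%) than at gene body peaks, unlike the other 6-mers with the smallest p. Against the strongest 3449 weaker regions in place of all of them, 14 of the 6-mers were still called. A longer run, TCTGCGT, chosen after the values were seen, was present at 24 gene body peaks (5.85%), 22 of them in introns, against 1.42% of weaker regions and 8.35% of promoter peaks. It is shown in capitals at 4 of the strongest peaks that hold it.
epg-9 (IV:2602136-2602165, plus strand): atcttttgatgTCTGCGTctcaccagtgtc
Y111B2A.12 (III:12612653-12612682, plus strand): gtcactcgatgTCTGCGTctcggtgtcatt
nhr-19 (II:9603641-9603670, minus strand): ttcctttagtcgTCTGCGTatgtgtcacca
spop-1 (III:10096737-10096766, minus strand): ctcatctaacaaTCTGCGTctcaattctct
In 3 of these 4 sequences, those of epg-9, Y111B2A.12 and spop-1, the run is followed by CTC. These 3 bases were the most common ones after the run, and the 10 bases TCTGCGTCTC were present at 14 gene body peaks (3.41%), 114 promoter peaks (5.35%) and 75 weaker regions (0.589%). The epg-9 peak, in an intron of an autophagy gene, had signals of 422 and 273 in replicates 1 and 2, and that of nhr-19, a nuclear hormone receptor gene, 133 and 127.

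A large group of the strongest gene body peaks lay at noncoding RNA genes nested inside the host gene. A noncoding RNA gene other than a tRNA was within 200 bp of the summit at 91 of 410 gene body peaks (22.2%, 18.4% to 26.5%) and at 493 of 12738 weaker regions (3.87%, 3.55% to 4.22%; odds ratio 7.09, Fisher's exact test, adjusted p = 1.82e-38). The same held for 83 of 484 intergenic peaks (17.1%) and 231 of 2132 promoter peaks (10.8%). Small nucleolar RNA (snoRNA) genes, whose products guide chemical modification of ribosomal and other RNAs, were near 41 gene body peaks (10%, 7.46% to 13.3%) against 0.385% of weaker regions. Genes for small nuclear RNAs (snRNA), the RNAs of the spliceosome and of trans-splicing, were near 15 (3.66%, 2.23% to 5.95%) against 0.0628%. Against the strongest 3449 weaker regions the comparison was 6.12% for any noncoding RNA gene (odds ratio 4.37) and 1.15% for snoRNA genes (odds ratio 9.52 in place of 28.8). Both subtypes were singled out after their values were seen, so their shares carry intervals and no p. Of the 41 peaks near a snoRNA gene, 38 were in introns of the host. Of their summits, 30 were upstream of the 5′ end of the snoRNA gene, 5 lay within it and 6 past its end, and the median position was 23 bp upstream of the 5′ end. Reads that match several near-identical noncoding RNA genes could have been placed at more than 1 of them, and their part in these shares, positions and signals was not tested.

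Internal promoters of many genes transcribed by RNA polymerase III contain a B box, here searched as GTTCGANNC on either strand within 50 bp of the summit, a search added after the values were seen. It was present at 7 of the 41 peaks near a snoRNA gene (17.1%, 8.53% to 31.3%), at 7 of the 319 gene body peaks with no noncoding RNA gene nearby (2.19%), at 1.37% of weaker regions and at 0.844% of promoter peaks. The 4 strongest of the 7 are shown, with the match in capitals.
frm-7 (V:12303654-12303683, plus strand): ggcttcgttgGTTCGACCCccgcgcgtagt
Y43F8C.7 (V:19643178-19643207, minus strand): acagcttccggGTTCGATTCccacccacgg
rbm-34 (IV:12086679-12086708, plus strand): gcgcccacgaGTTCGACCCccactgcttgc
mix-1 (II:10840290-10840319, plus strand): tcgctcgcggGTTCGAGGCcggcagcatgt
The frm-7 peak, in an intron of a FERM domain gene and beside the snoRNA gene C51F7.4, had signals of 386 and 363 in replicates 1 and 2. Y43F8C.7 had 210 and 276, rbm-34, an RNA-binding protein gene, 230 and 224, and mix-1, which encodes a condensin subunit, 219 and 142 beside M106.6. A match says that these letters are present and does not show which polymerase or factor uses them.

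Peaks at noncoding RNA genes were stronger than the rest. Their median pooled signal was 213 (quartiles 142 and 348) against 131 (111 and 182) for the 319 gene body peaks without such a gene, 203 for promoter peaks and 151 for intergenic peaks. At snoRNA genes the median was 313. Signal is what ranked the IDR list, so these medians are given without a test. Of the 20 strongest gene body peaks, 12 had a noncoding RNA gene nearby, and 7 of those had a snoRNA gene. The second strongest gene body peak was in intron 17 of 21 of pxn-1, a peroxidasin gene (chromosome V, 8500416 to 8500703), beside the snoRNA gene ZK994.7, with signals of 491 and 441. Signals of 305 and 234.9 were recorded in intron 31 of dhc-4, a dynein heavy chain gene (III, 10989510 to 10989817), beside an snRNA gene named R07E5.16. That name is shared by 14 genes of the annotation, and reads that match several copies could have been placed at more than 1 of them. In F58G1.7 (II, 12944543 to 12945137) a single region held 2 summits, beside the noncoding RNA genes sup-6 and F58G1.11, with pooled signals of 514 and 490, and both drew their replicate values of 284 and 233 from the same replicate regions.

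**Figure D1:**
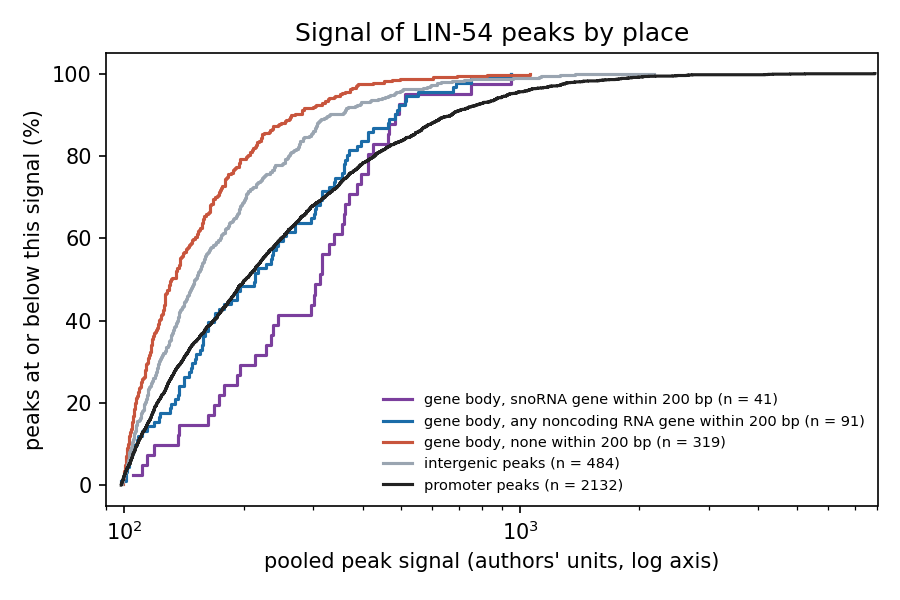
Cumulative share of LIN-54 peaks (vertical axis, %) by pooled peak signal in the authors' units (horizontal axis, log scale) for gene body peaks with a snoRNA gene, with any noncoding RNA gene and with none within 200 bp, and for intergenic and promoter peaks. The curve for gene body peaks with no noncoding RNA gene (median 131) lies left of that for promoter peaks (median 203), and the snoRNA curve (median 313) lies to its right over most of its length.

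Several other strong peaks lay at noncoding RNA genes, some of which encode RNAs of known function. In ints-8, an Integrator complex subunit gene, the peak (chromosome I, 13463815 to 13464141) had its summit 10 bp from rpr-1, the gene for the RNase P RNA, and signals of 356 and 321. The glutamate receptor gene glr-2 (III) held 3 peaks in introns 10, 12 and 14 with pooled signals of 218, 364.7 and 242, each near a noncoding RNA gene, among them sls-2.16 and sls-2.5, which encode SL2 trans-splicing leaders. In replicate 1 the 3 peaks had signals of 126, 166 and 135, and in replicate 2 they had 75.8, 199 and 103. Because sls-2 genes are a multigene family, the assignment of reads among copies is uncertain here too. In ppfr-1, a protein phosphatase regulatory subunit gene (chromosome I), 4 peaks in introns 6 and 7 ranged from 131 to 689 in pooled signal, and 3 of them lay near noncoding or antisense RNA genes. The strongest of these 4 had 438 and 252 in the replicates, and the peak at 208 had no match in the replicate 1 list.

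Other strong intron peaks had no annotated noncoding RNA gene within 200 bp. Intron 4 of pals-1 (chromosome I, 11580220 to 11580477) held the third strongest gene body peak, with signals of 370 and 458. Set-18, a SET domain gene (chromosome I, 10591620 to 10591876), had 309 and 287 and held both an E2F site and a CHR element. T27F6.6 (chromosome I, 12492468 to 12492700), also with both elements, had 224 and 266. Replicate 2 was the higher in pals-1 and T27F6.6, and replicate 1 in set-18.

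Within genes, LIN-54 summits lay in introns and UTRs more often, and in coding exons less often, than weaker regions did. Introns held 230 of the 410 (56.1%, 51.3% to 60.8%) against 45.6% of weaker regions (odds ratio 1.53, Fisher's exact test, adjusted p = 4.58e-05). With replicate 1 left out, this difference no longer passed (53.8% against 49.3%, exact test, adjusted p = 0.0882). Coding exons held 91 (22.2%, 18.4% to 26.5%) against 47.7% (odds ratio 0.312, Fisher's exact test, adjusted p = 2.98e-25). UTRs held 89 (21.7%, 17.99% to 25.95%) against 6.67% (6.25% to 7.12%), a share read after the tests on introns and exons and given with no p. Against the strongest 3449 weaker regions, 1127 of which were in gene bodies, 142 were in UTRs (odds ratio 1.92 in place of 3.88). Per megabase of sequence that could have qualified, there were 43.7 peaks in UTRs, 10.5 in introns and 5.97 in coding exons, and 10.47 overall. Introns made up 55.8% of that sequence, close to their 56.1% of peaks, so the intron excess holds only against weaker regions. Coding exons made up 38.96% of it, above their share of peaks and below their share of weaker regions. Regions of 1 list are not independent replicates, so these p-values describe the lists and not the spread between animals. As a class, gene body peaks made up 12.8% of autosomal IDR peaks against 53.1% of weaker autosomal regions (odds ratio 0.13).

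**Figure D2:**
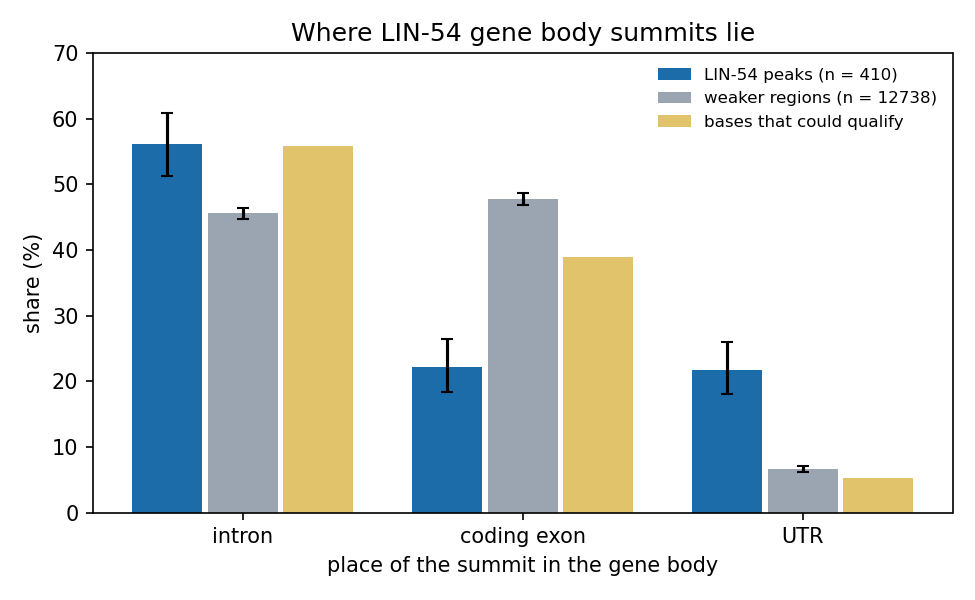
Share (%) of gene body LIN-54 peaks, of weaker gene body regions and of the bases that could have qualified in introns, coding exons and UTRs. Bars for regions carry Wilson 95% intervals, which cover counting error over regions only. UTRs hold 21.7% of the peaks, 6.67% of the weaker regions and 5.20% of the bases. Introns hold 56.1%, 45.6% and 55.8%.

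Most UTR peaks were in 3′ UTRs, which lie at the ends of genes. Of the 89, 83 were in 3′ UTRs and 6 in 5′ UTRs. The 3′ UTR summits lay a median of 77 bp before the end of the gene (quartiles 36.5 and 188), against 193 bp for 801 weaker 3′ UTR regions, and 64 of the 83 (77.1%) lay within the last 200 bp, against 51.3%. Along the whole gene, 164 of the 410 summits (40%, 35.4% to 44.8%) fell in the last 20% of the length against 23.7% of weaker regions. These 164 include 78 of the 83 3′ UTR summits, so this share in part restates the share of UTRs. Intron peaks were rarer there, with 26 of 230 (11.3%) in the last 20%. The 3′ UTR peaks had a low median GC content of 35.6% and a median signal of 138. Of the 90 host genes of 3′ UTR peaks, 45 (50%, 39.9% to 60.1%) also had a promoter peak, against 34.0% of genes with a weaker 3′ UTR region. These values were read after the fact and have no test.

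The strongest 3′ UTR peak (chromosome III, 1419631 to 1420149) lay where the convergent genes Y82E9BR.3 and lelo-2 overlap and had signals of 180 and 217. In lin-29, a zinc finger transcription factor gene of the heterochronic pathway (II, 11917584 to 11917937), the signals were 183 and 190, and no promoter peak was called. At the 3′ end of rpl-3, which encodes a ribosomal protein, the signal was 166 in both replicates. Klp-18, a kinesin gene of the meiotic spindle, had 138 and 162 at its 3′ end, and car-1, an RNA-binding protein gene of the germline, 124 and 126. The strongest of all gene body peaks was in a 5′ UTR, in C34C12.2 (III, 3456280 to 3456557), with 539 in replicate 1 and 524 in replicate 2 and rank 91 of the 3449. Its summit was 2642 bp downstream of the annotated transcript start and 172 bp upstream of the start of the coding sequence.

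**Figure D3:**
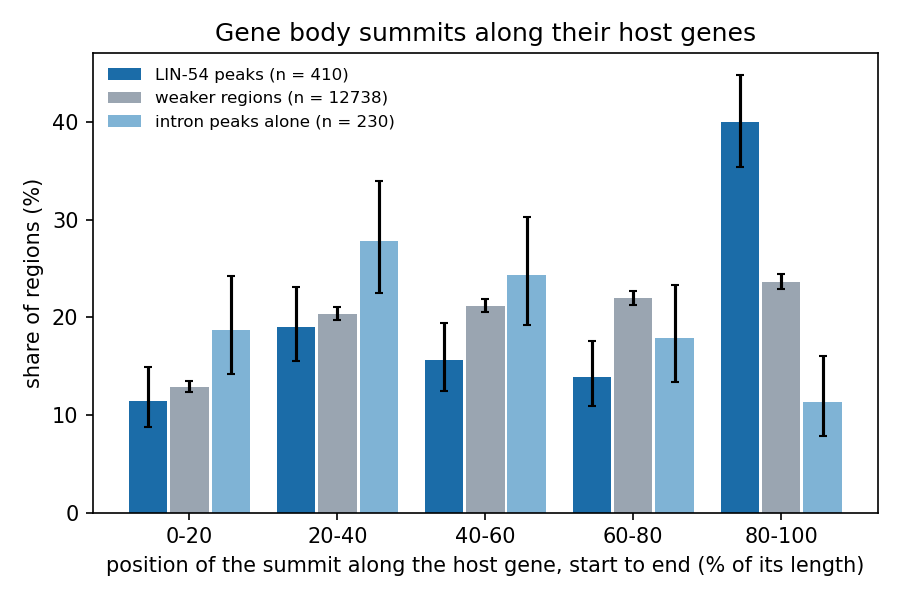
Position of summits along the host gene, in bins of 20% of its length from start to end (horizontal axis), as the share of regions (vertical axis, %) with Wilson 95% intervals. Gene body LIN-54 peaks reach 40% in the last bin against 23.7% for weaker regions, and intron peaks alone 11.3%.

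Coding exon peaks were weaker, and fewer of them were found among the strongest regions of both replicates. Their median pooled signal was 126 against 161 for intron peaks and 136 for UTR peaks. The strongest were in chmp-7, an ESCRT-related gene (II, 9056231 to 9056525), with 234 and 216, in lmd-2, a LysM domain gene (chromosome I, 4645322 to 4645707), with 224 and 205, and in F31E3.12 (III, 6969829 to 6970434), with 223 and 146. Of the 91, 43 were met by the strongest 3449 regions of both replicates, against 159 of 230 intron peaks and 56 of 89 UTR peaks. An E2F site was present at 5 of the 91 coding exon peaks (5.49%) and at 4 of the 89 UTR peaks (4.49%), against 36 of the 230 intron peaks (15.7%).

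The distance to annotated starts did not separate gene body peaks from weaker regions. Within 1000 bp downstream of a 5′ end of the host lay 102 of 410 (24.9%, 20.9% to 29.3%) against 26.7% (25.96% to 27.5%; odds ratio 0.908, Fisher's exact test, adjusted p = 0.427). The median distance was 1812 bp for peaks and 1874 bp for weaker regions. In the host transcript with the longest coding sequence, 219 intron peaks fell in an intron. Of these, 51 (23.3%) were in the first intron against 16.24% of weaker intron regions, and the median intron was 1288 bp long against 969 bp. Just outside the rule, 45 promoter peaks lay over 200 and up to 300 bp downstream of a 5′ end, with a median signal of 127, and just inside it 15 gene body peaks lay over 300 and up to 400 bp downstream, with a median of 126. No gene body peak lay between 200 and 400 bp from a tRNA gene. Another IDR summit was within 1000 bp of 72 gene body summits, and a promoter IDR summit within 1000 bp of 33.

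E2F sites were more frequent at gene body peaks than at weaker gene body regions and less frequent than at promoter peaks. They were present at 45 of 410 (10.98%, 8.30% to 14.4%), against 5.94% of weaker regions (odds ratio 1.95, Fisher's exact test, adjusted p = 0.000189) and 21.8% of promoter peaks (odds ratio 0.443, Fisher's exact test, adjusted p = 3.26e-07). Limited to windows of 40% to 50% GC, a restriction added after seeing the data, the first difference did not pass (9.20% of 163 against 6.23%, exact test, adjusted p = 0.164), while the second did (23.8% of promoter peaks). In introns alone, also added, the share was 15.7% against 9.08% (exact test, adjusted p = 0.00215). There the median GC content was 46.5% for peaks and 37.6% for weaker regions, and its part in this difference was not tested. E2F sites were concentrated at the summit, with 129 sites per 1000 gene body peaks within 50 bp and 51.2 per 1000 between 150 and 200 bp, against 256 and 42.7 at promoter peaks. CHR elements were present at 101 of 410 (24.6%, 20.7% to 29.0%), against 27.1% of weaker regions (26.3% to 27.8%; odds ratio 0.881, Fisher's exact test, adjusted p = 0.307) and 40.3% of promoter peaks (odds ratio 0.484, Fisher's exact test, adjusted p = 2.36e-09). Gene body peaks had 371 CHR elements per 1000 within 50 bp of the summit and 456 per 1000 at 150 to 200 bp, whereas promoter peaks had 596 and 451. Weaker gene body regions had 415 and 459 CHR elements per 1000 at these distances, and 72.1 and 54.5 E2F sites per 1000.

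**Figure D4:**
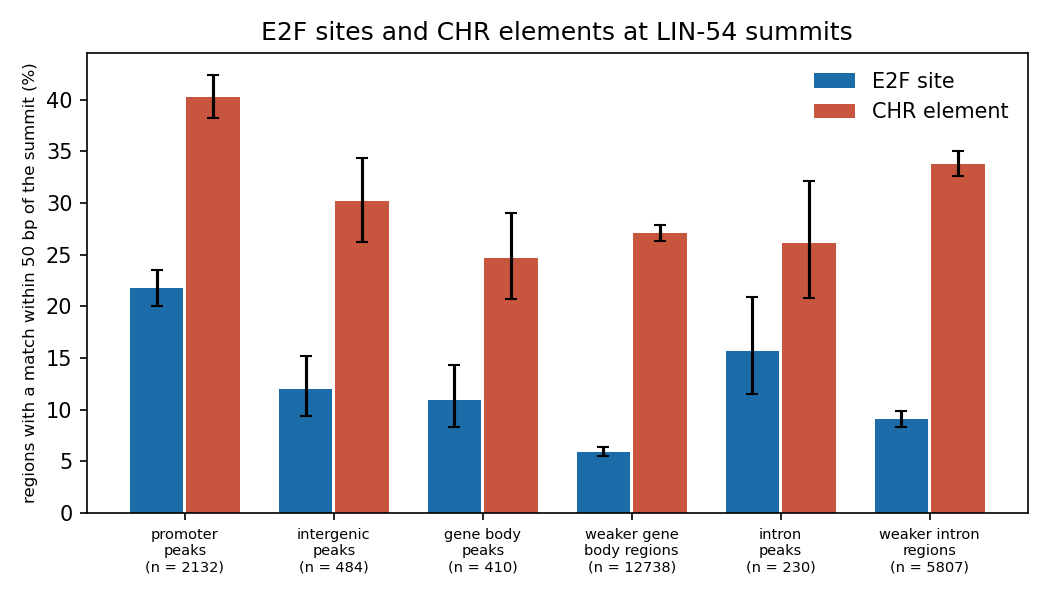
Share of regions (%) with an E2F site or a CHR element within 50 bp of the summit, with Wilson 95% intervals, in promoter, intergenic, gene body and intron LIN-54 peaks and in weaker gene body and intron regions. E2F sites reach 21.8% at promoter peaks, 10.98% at gene body peaks and 5.94% at weaker gene body regions, and CHR elements 40.3%, 24.6% and 27.1%.

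Both replicates showed the gene body peaks, but a smaller share of them than of promoter peaks was among the strongest regions of both. Of the 410, 403 had a region in both replicates' lists of 30000, with signals from 22.8 to 539 in replicate 1 and from 19.98 to 524 in replicate 2. The median ratio of replicate 1 to replicate 2 was 1.07, and the middle 90% of ratios ran from 0.619 to 2.09. Among the strongest 3449 regions of each replicate, 258 gene body peaks (62.9%, 58.2% to 67.5%) were met in both sets, 132 in 1 and 20 in neither. A region was met when 50% or more of the shorter one was shared. Of promoter peaks, 78.6% were met in both (odds ratio 0.462). The same replicates chose the list, so no p is given. Gene body peaks had lower signals, and the part of signal in this difference was not tested. Among the strongest 1724 IDR peaks, the shares met in both were 99.3% of gene body peaks and 99.2% of promoter peaks. Peaks this strong in the pooled replicates rarely miss either set, so these shares cannot tell the classes apart. Gene body peaks were also weaker: 113 (27.6%, 23.5% to 32.1%) exceeded the median signal of promoter peaks, with a median signal of 143 between 98.2 and 1056. No p is given for this share, since signal ranked the list and 50% of promoter peaks lie above their own median by definition. Across the 403, Spearman's rho between replicates was 0.643, and it was 0.896 over the 90 near noncoding RNA genes and 0.194 over 87 in coding exons. Quartiles of pooled signal were 142 and 348 for all 91 peaks near noncoding RNA genes, and 108 and 150 for all 91 in coding exons. The part of this narrower range in the lower rho of coding exon peaks was not tested. These peaks share their libraries and were selected from them, so no p is given. Read depth is unknown, since the lists hold no read counts.

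**Figure D5:**
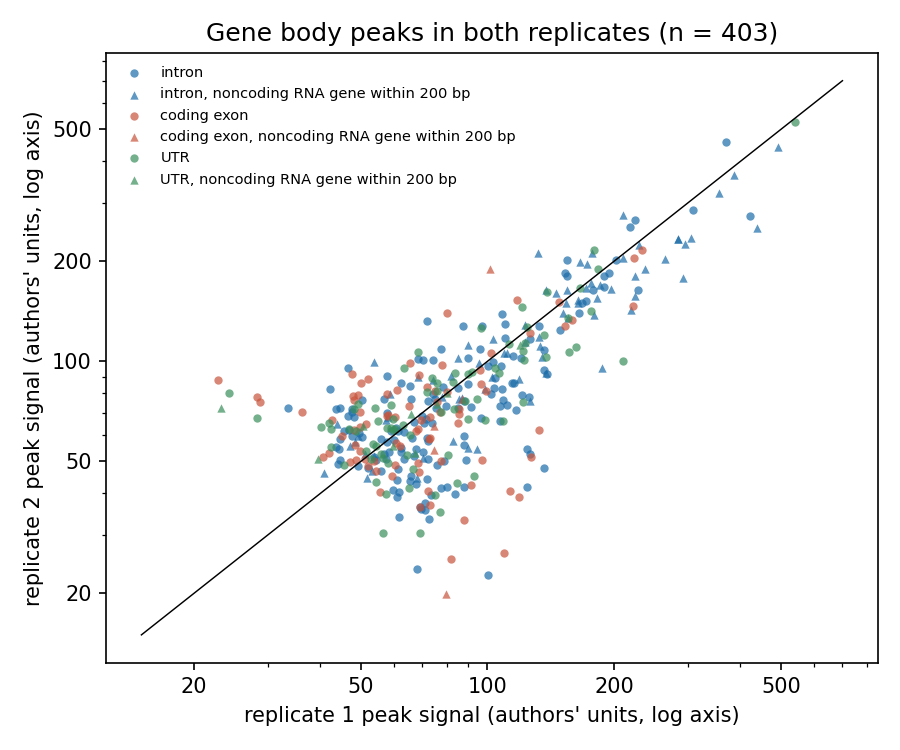
Peak signal in replicate 1 (horizontal axis) and replicate 2 (vertical axis), both in the authors' units on log scales, for 403 gene body peaks, coloured by place in the gene and with triangles for a noncoding RNA gene within 200 bp. The line marks equal values. Strong peaks lie near the line, and the spread widens below about 100 in either replicate.

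The 410 peaks fell in 372 host genes, 2.16% of the 17242 autosomal protein-coding genes, while 16% of those genes had a promoter peak. A single gene body peak was found in 336 hosts, 2 in 27 and 3 or more in 9. Per region, the host gene had a median length of 4729 bp for gene body peaks and 5761 bp for weaker regions. With each gene counted once, hosts had a median length of 4208 bp, against 3394 bp for genes with a weaker gene body region alone. A promoter peak was present at 136 of the 372 hosts (36.6%, 31.8% to 41.6%) against 30.4% of those other genes (odds ratio 1.32, Fisher's exact test, adjusted p = 0.017). Against hosts of the strongest 3449 weaker regions the direction turned, at 40.9% (exact test, adjusted p = 0.192). Autosome centres, from 25% to 75% of each chromosome's length, held 236 of the 410 (57.6%, 52.7% to 62.3%) against 48.7% of weaker regions (Fisher's exact test, adjusted p = 0.000561), and against the strongest weaker regions (55.5%) the difference did not pass (exact test, adjusted p = 0.486). Chromosome III held 117 peaks, or 8.49 per megabase, and the other 4 autosomes 3.15 to 5.17 per megabase. It also held the most IDR peaks of all classes, 738, of which gene body peaks made up 15.9%, against 10.1% to 13.6% on the others.

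Genes with several peaks included pqn-41 (III), whose prion-like product is rich in glutamine and asparagine, with 5 peaks in its intron 14 of 10372 bp and pooled signals from 124 to 233. Zfp-1, a chromatin gene related to human AF10, had 3 intron peaks with signals in replicates 1 and 2 of 110 and 117, of 85.2 and 72.6, and of 62.1 and 85.9. The transcription factor gene hlh-30, related to TFEB, had 3 between 107 and 136 in pooled signal, and mnk-1, a kinase gene, had 3 between 101 and 166. The mnk-1 peaks of 137 and 101 lay near noncoding RNA genes. Y69A2AR.31 and Y43F8B.2 also had 3 each, and the strongest in Y69A2AR.31 lay near the noncoding RNA gene Y69A2AR.44.

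Gene lists were set beside the 2.16% of autosomal genes with a gene body peak. Of 8 DREAM subunit genes, 1 had such a peak, lin-9, in its intron 8 with 65.8 and 45.1 in the replicates, whereas 7 had a promoter peak. Mitotic cell cycle genes had 6 of 92 (6.52%, 3.02% to 13.5%), among them mix-1, klp-18 and the condensin gene hcp-6, and 66 of the 92 had a promoter peak. Hcp-6 and spd-5, both counted, had an identical pooled signal of 163.832, as when a single peak lies in overlapping genes. The mix-1 peak is the one beside the snoRNA gene M106.6. DNA replication and repair genes had 3 of 82, the checkpoint gene hpr-17, brc-1, related to BRCA1, and the clamp loader gene rfc-3. The hpr-17 intron peak held an E2F site and a CHR element and had 71.9 and 132. Germline RNA regulators and oocyte genes had 10 of 58 (17.2%, 9.64% to 28.9%), led by car-1, the kinase gene mbk-2 (89.7 and 102) and the RNA helicase gene cgh-1 (71.8 and 81.1). Small RNA pathway genes matched by symbol had 3 of 53, the Argonaute genes hrde-1 and csr-1 and the nuclear RNAi gene nrde-2. The listed symbol wago-3 matched no gene name, and ppw-2, another name of that Argonaute gene, is not in this count but had a 3′ UTR peak with 93.0 and 44.99. Meiotic chromosome genes had 1 of 40, prom-1, and chromatin and synMuv genes 2 of 60, zfp-1 and set-17.

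Of 76 ribosomal protein genes, 4 had a gene body peak (5.26%, 2.07% to 12.8%) and 66 a promoter peak. Rps-13 held 2 in 1 region, 1 in its 3′ UTR and 1 in an intron beside the snoRNA gene C16A3.11, and rpl-7A had 61.9 and 55.5 in a coding exon. Spliceosome and RNA-binding genes had 3 of 41, the SR protein genes rsp-5 and rsp-3 at their 3′ UTRs and nova-1. Heat shock and stress genes had 3 of 29 (10.3%, 3.58% to 26.4%), the chaperone genes hsp-1, hsp-110 and dnj-13, all 3 in coding exons, and the hsp-1 peak lay beside a snoRNA gene. None of 36 translation factor genes had one.

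Developmental transcription factor genes outside the homeobox and nuclear receptor families had 9 of 77 (11.7%, 6.27% to 20.7%), and 12 of the 77 had a promoter peak. The 9 were led by lin-29, fkh-7 (115.8 and 85.8) and mef-2 (100.3 and 96.5). Signalling genes had 6 of 64 (9.38%, 4.37% to 18.98%), led by the Notch receptor gene lin-12 in a coding exon (96.3 and 85.4), the insulin receptor gene daf-2 in its first intron (77.8 and 78.0) and the ERK gene mpk-1 in its first intron (88.0 and 59.6). The daf-2 peak held an E2F site and 2 CHR elements and lay near the noncoding RNA gene linc-143. Neuron genes had 4 of 68, led by the ephrin receptor gene vab-1, unc-31 and the tubulin acetyltransferase gene mec-17. Cytoskeleton and adhesion genes had 3 of 51, the spectrin gene unc-70, the 14-3-3 gene par-5 and rho-1, and muscle genes 1 of 43, the syntrophin gene stn-1. Nuclear hormone receptor genes had 5 of 247 (2.02%), led by nhr-19, nhr-61 and nhr-64, collagen genes 2 of 145, col-72 and col-140, and chemoreceptor genes 5 of 1266 (0.395%), led by sre-45, srt-52 and srt-47. The unc-31 peak lay near the noncoding RNA gene ZK897.8, the unc-70 peak near K11C4.7 and the stronger sre-45 peak near the snoRNA gene F54F11.6. No homeobox gene of 68 had a gene body peak. Lists differ in gene length and share members, and nothing about a list was tested.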

How the data were processed

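LIN-54 ChIP-seq regions of 2 biological replicates in 1 group were analysed. Per the labels, the authors used build ce11 (WBcel235). The deposited lists give the peak caller's signal for each region and its summit offset. The relaxed lists of replicate 1, replicate 2 and the pooled replicates hold 30000 regions each and were the authors' input to IDR, per the file headers and notes. The IDR list holds the 3449 strongest pooled regions. No source used here names the aligner, the peak caller, the threshold of the IDR step or how the signal is computed, and signals were compared within a list or printed side by side. Read depth is unknown. Wilson 95% intervals cover counting error over regions or genes alone.

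Regions were read 1-based with Python 3.11.15, pandas 2.3.3 and numpy 2.4.6. Tests used scipy 1.17.1, and matplotlib 3.10.9 drew the figures. Genes came from Ensembl release 115 (19973 protein-coding genes), and sequence from RefSeq's WBcel235. Coding exon took precedence over UTR, and UTR over intron. Introns were numbered in the host transcript with the longest coding sequence. Background, called weaker regions in the text, was the 26151 pooled regions that overlapped no IDR peak, 23987 of them autosomal. A replicate region matched a peak when they shared 50% or more of the shorter one. There were 13 two-sided Fisher's exact tests, adjusted together by the Benjamini-Hochberg method with a threshold of 0.05, and 2080 6-mer tests, adjusted over the 2080. The p-values of the tests on signal and on the match in both replicates are not printed, since the same signals chose the peaks. The scripts were tested on simulated data. The members and lists were chosen with earlier results of these data known. Of the symbols in the 20 gene lists, 18 matched no protein-coding gene name and were left out, though some of these genes may be annotated under other names. Named genes were the hosts of the 10 strongest peaks, of the 3 strongest in introns, coding exons and UTRs, and of the 4 strongest with both motifs, up to 8 genes with 3 or more peaks, and up to 3 hosts per list. Other hosts, such as those of printed sequences, were chosen after their values were seen. Alternatives were each replicate left out, stronger peaks, other promoter windows, distances and overlaps, a stronger background, and regions near noncoding RNA genes left out, and limits on GC and on introns were added after seeing the data.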

Additional observations from a re-analysis of the deposited data

How the results depend on the processing

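No paired analysis was possible because there is 1 group. Of 129 recomputed values, 111 kept their direction and their side of the threshold (or, for counts and untested shares, stayed near the value given). With each replicate left out, the intron share was 53.8% to 54.8% and passed only without replicate 2, and the share within 1000 bp of a 5′ end was 25.6% to 27.3%, without replicate 1 above the 26.4% of weaker regions. The match in both replicates could not be recomputed in that setting. Among the strongest 1724 IDR peaks, 99.3% of gene body peaks were met in both replicates against 99.2% of promoter peaks. Such strong peaks rarely miss either replicate's set, so these shares cannot tell the classes apart. Also among the strongest 1724, host genes with a promoter peak were 24.8% against 19.8% and did not pass. That host share was 38.6% with promoter windows of 2000 bp upstream and 500 bp downstream and no longer passed, and against the strongest weaker regions it stayed 36.6% while the comparison rose to 40.9%. The centre share of 57.6% did not pass against those regions. The CHR share turned to lie above that of weaker regions, without passing, with windows of 500 bp upstream and 100 bp downstream (29.0% against 27.1%) and at 40% to 50% GC (22.7% against 19.95%). It was 26.1% in introns, where it fell below the 33.8% of weaker regions (exact test, adjusted p = 0.0166) and median GC was 46.5% against 37.6%. Within 25 bp of the summit it was 13.4% against 17.6% at promoter peaks and did not pass. The E2F share at 40% to 50% GC was 9.20%. Called 6-mers numbered 14 against the strongest weaker regions, 74 within 25 bp, 188 within 100 bp and 271 in introns, against 125. Among the untested shares, UTRs held 17.3% and snoRNA genes were near 23.02% of the strongest peaks. The causes were not tested. Read depth, which limits weak peaks, is unknown.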
